A study of Sus scrofa with 36 samples.

Results

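The liver response to heat was examined within 1 genetic group, the F1 cross of Large White and Créole pigs. Members were chosen by their titles, which name liver, the cross and the temperature. This gave 12 of the 36 animals of the series, 6 thermoneutral (TN) and 6 heat-stressed (HS). All were castrated males raised in Guadeloupe on free access to the same diet, and they entered the climatic room at 11 weeks of age. The TN pigs were killed at 24 °C before the room was warmed. The HS pigs were killed after 4 or 5 days of heat, for which the labels give 30 °C and the growth protocol 32 °C. Temperature therefore cannot be told apart from slaughter day or from the few days of added age. Per the study's methods the F1 pigs came from 3 blocks of 4 littermates and lived in pens of 3, with 2 pens per temperature, but litter, pen and day are not in the labels and were not used. The other 24 animals are 12 Large White (LW) and 12 Créole (CR) pigs with the same 6 and 6 split, and they serve here for comparison. Their arrays also enter the normalization, the probe filter and the estimate of the spread between animals, so the F1 tests depend on them too.

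The liver makes most plasma proteins, stores and releases glucose, and turns fatty acids into ketone bodies or lipids. Heat shock proteins are chaperones that bind unfolded proteins, and in cells warmed acutely their genes are induced by the heat shock transcription factors. In pigs kept warm for days, intake and thyroid and adrenal hormones are also known to shift, and many liver genes respond to these signals. Bulk RNA does not separate fewer cells of a type from less RNA per cell.

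RNA was measured on 1-colour Agilent pig arrays with 60-base probes. Values below are log2 quantile-normalized median spot signals, and differences are HS minus TN on that scale with the standard error (SE) of a limma fit over all 36 arrays. That SE uses a spread pooled over the 6 groups, not the spread within F1 alone. It understates the uncertainty where F1 animals spread more and overstates it where they spread less. At CPT1A, for example, standard deviations (SD) were 1.1 and 0.872 in F1 TN and HS animals and 0.311 to 0.576 in the LW and CR groups. Of 60305 probes, 44796 (74.3%) passed the filter for signal over background, and 23412 of these carried one of 11401 gene symbols. In the 12 F1 arrays 40064 to 43536 spots were well above background. The hepatocyte markers were the brightest of the marker lists in these samples, with a mean over 8 measured markers of 16.63 to 16.75 in TN animals and 16.7 to 16.77 in HS animals. F1 animals spread widely. On the first principal component of all 36 arrays, LW scores ran from -44.2 to -3.04 and CR scores from 2.35 to 35.4, and HS replicates 1 and 2 and TN replicate 3 of the cross lay on the LW side at -17.0, -21.3 and -18.1.

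Only 4 probes passed an adjusted p of 0.05 in F1, which is 0.00893% of the probes tested, with 2 higher and 2 lower in HS pigs (0.00446% each). The 2 higher probes read nearly the same stretch of DOK2, an adaptor protein that acts downstream of tyrosine kinases, mainly in blood-derived cells. The 2 lower ones were a probe for MTRF1, a release factor of mitochondrial translation, and a probe with no gene name. An unadjusted p under 0.05 was found for 4167 probes (9.3%), with 2053 higher (4.58%) and 2114 lower (4.72%). Values of HS and TN animals did not overlap at 156 probes (0.348%).

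DOK2 lies on chromosome 14 at 6176487 to 6180895 of Sscrofa11.1. The DOK2 probe and the probe made from an unnamed cDNA are shown because they read nearly the same stretch. Of 57 aligned bases 54 were identical, and the capital marks the first mismatch, C31G, with the DOK2 probe's base first and positions counted from its first base. The scanner tables list the same cDNA among the accessions of 3 DOK2 probes. Each line gives 30 bases of the probe as written in the tables.
DOK2 probe: cagctttcggacttCtttgtggcattaaac
cDNA probe: cagctttcggacttGtttgtggcattaaac

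At the DOK2 probe the TN animals lay at 10.49, 10.63, 10.18, 10.27, 11.21 and 10.80, and the HS animals at 11.51, 11.90, 11.99, 12.06, 11.77 and 11.45. Every HS animal was above every TN animal. The rise was 1.19 ± 0.167 (pooled SE, n = 6 per group), or 2.28-fold, with a limma adjusted p of 0.00151. At the cDNA probe TN animals lay at 10.72, 10.77, 10.48, 10.29, 11.48 and 10.98 and HS animals at 11.37, 11.70, 11.93, 12.29, 11.85 and 11.61. Here 1 TN animal, replicate 5, reached into the HS range, and the rise was 1.00 ± 0.17 (limma adjusted p 0.014). TN replicate 5 was the highest TN animal at both probes. The same DOK2 probe lay between 10.96 and 11.66 in LW TN pigs and between 10.44 and 11.74 in CR TN pigs, so the cross had the lowest TN mean (10.6 against 11.37 and 11.06) and the highest HS mean (11.78 against 11.35 and 11.49).

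The difference at the DOK2 probe was -0.02 ± 0.167 in LW and 0.43 ± 0.167 in CR. The F1 difference exceeded the mean of these by 0.98 ± 0.205, with an unadjusted p of 3.13e-05 but an adjusted p of 0.468, so no difference between the cross and the breeds was established over the whole array. Within slides, the DOK2 difference in F1 was 1.46, 1.44, 1.55 and 0.45 on slides 2, 3, 4 and 5, and with slide as a block it was 1.15 (adjusted p 0.00332). Slide 1 held 1 F1 array, of an HS pig. Slide 2 held HS replicates 2 and 3 and TN replicate 1, and slide 3 HS replicate 4 and TN replicate 2. Slide 4 held HS replicate 5 and TN replicates 3 and 4, and slide 5 HS replicate 6 and TN replicates 5 and 6. Each within-slide value thus compares only 1 or 2 animals per temperature. Of 31 alternatives that tested single probes, the call was lost in 4, a fit of the 12 F1 arrays alone (adjusted p 0.298) and the fits without slide 2, 3 or 4 (0.125, 0.072 and 0.47). The cDNA probe's call was lost in 11, which were the F1 arrays alone (0.591), the fits without slide 2, 3 or 4 (0.43, 0.199 and 1), those without TN replicate 1, 3 or 4 or HS replicate 3, 4 or 5 (0.0518 to 0.0877), and that without HS replicates 1 and 2 and TN replicate 3 (0.0558).

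DOK2 had 4 measured probes. They began at bases 480, 1250 and 1775 of the transcript, and for 1 no start was given. The probe at base 1250 lay between 7.51 and 7.83 in TN pigs and between 7.90 and 8.42 in HS pigs with no overlap, a difference of 0.53 ± 0.117 (adjusted p 0.123). At base 480 the F1 difference was 0.28 ± 0.0943, and at the probe with no start it was 0.07 ± 0.0835. CR differences at bases 480, 1250 and 1775 were 0.25, 0.41 and 0.43, with 0.23 at the probe with no start. In LW they were 0.11, -0.01, -0.02 and -0.05 in that order. The cDNA probe gave 0.49 in CR and 0.10 in LW. Among the 3 placed probes the F1 difference was larger nearer the 3′ end, but these probes were also brighter in the same order. Their F1 TN means were 6.3, 7.66 and 10.6, and the part of brightness was not tested. The probe with no start was the dimmest, with a TN mean of 5.8. Only the probe at base 1775 passed the threshold. In a list of 30 leukocyte signalling adaptors 22 were measured, DOK2 was the only member called, CSK was the only other with an unadjusted p under 0.05 (-0.21 ± 0.095), and the median difference was 0.02. Lists were read at each gene's brightest measured probe, where 9.76% of all 11401 genes had such a p.

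Markers of macrophages, lymphocytes, neutrophils and monocytes give the setting of DOK2. The median difference was -0.06 over 9 resident macrophage markers, -0.06 over 11 T and NK lymphocyte markers, 0.11 over 7 B lymphocyte and plasma cell markers and -0.05 over 9 neutrophil and monocyte markers. The macrophage list averaged 10.86 to 11.21 in TN animals and 10.56 to 11.56 in HS animals. The neutrophil list averaged 7.755 to 8.0 in TN and 7.524 to 8.133 in HS, and the ranges of the lymphocyte lists overlapped as well. Of the 36 markers in these 4 lists, 1 was higher and 2 were lower at an unadjusted p under 0.05 (8.33%, against 9.76% of all genes).

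**Figure D1:**
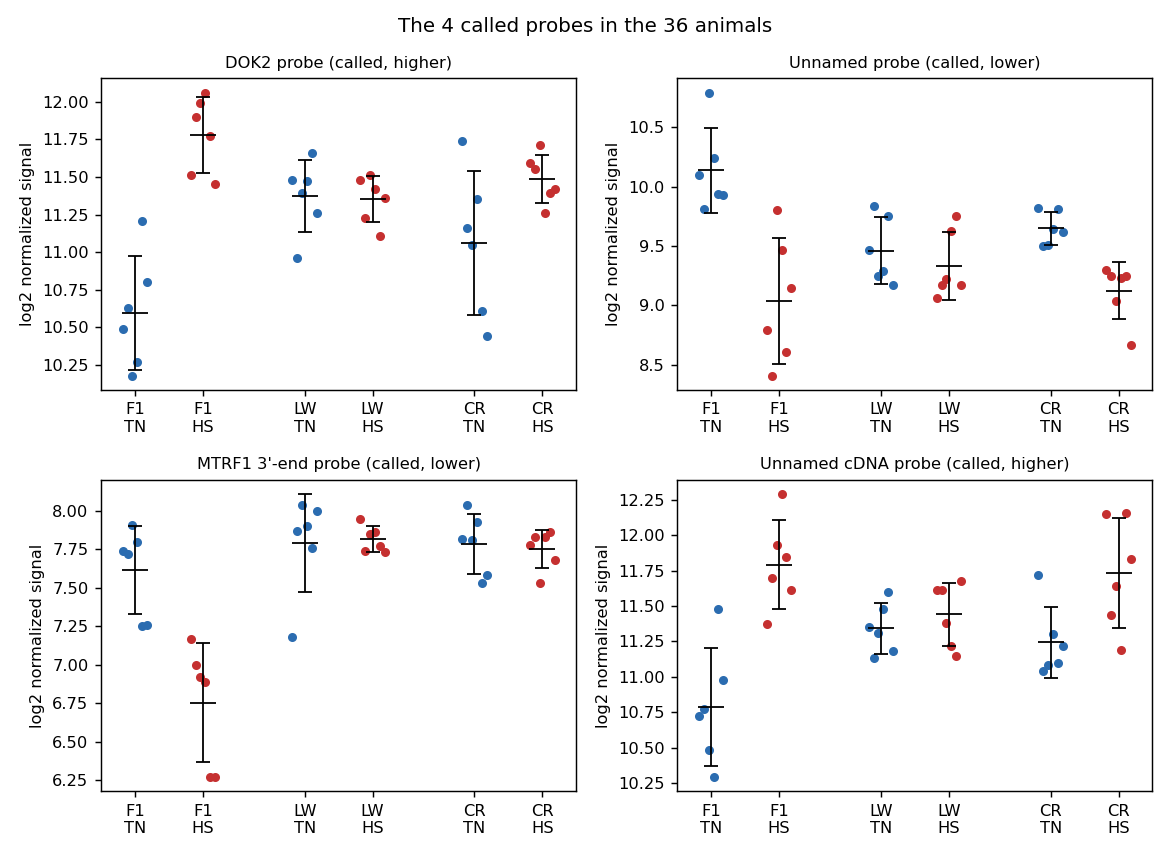
Log2 normalized signal (vertical axis) of the 4 called probes in each animal of the F1, LW and CR groups at TN (blue) and HS (red), with group mean and SD as bars, n = 6 per group. HS and TN points of F1 separate at the DOK2, MTRF1 and unnamed probes and overlap at the cDNA probe. CR points separate at the unnamed probe too and overlap at the other 3, and LW points overlap at all 4.

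MTRF1 lies on chromosome 11 at 25603784 to 25638576. It had 6 measured probes, of which 3 overlap. Those of the 3 with a given start lie further 3′ than the other probes with one, but the transcript's length was not known. The called probe begins at base 1816 of the transcript, and the other 2 share 57 bases with it. The probes are shown because the difference was seen at the 3 probes of this stretch and not at the other 3, and 23 bases common to the first 2 windows stand in capitals. The last 2 lines are probes from further upstream.
MTRF1 base 1816: TACAGGACTGTCCAGCTCTTCAAgtagaaa
MTRF1 base 1819: tttcctgTACAGGACTGTCCAGCTCTTCAA
MTRF1 base 1232: atagatacttttcgagccaaaggagcagga
MTRF1 base 686: tacaaggaaattcaggaggctgaacaagcc

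TN animals lay at 7.74, 7.72, 7.91, 7.80, 7.25 and 7.26 at the called MTRF1 probe, and HS animals at 7.17, 7.0, 6.92, 6.89, 6.27 and 6.27. All HS animals were below all TN animals. The probe fell by 0.86 ± 0.143 (1.81-fold; limma adjusted p 0.0125). Within each group, replicates 5 and 6 were the lowest. No LW or CR animal at either temperature was below 7.18, the lowest LW TN value, and CR animals ranged from 7.53 to 8.04. The difference was 0.03 ± 0.143 in LW and -0.03 ± 0.143 in CR, and the F1 difference from their mean had an unadjusted p of 2.38e-05 and an adjusted p of 0.468.

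The 2 overlapping MTRF1 probes gave -0.77 ± 0.155 and -0.79 ± 0.15, with adjusted p of 0.0916 and 0.0669. The other 3 probes of MTRF1 gave -0.03, -0.05 and -0.05 with unadjusted p from 0.548 to 0.767, and their sign turned under some settings. Averaged over its 6 probes, MTRF1 gave -0.43 (adjusted p 0.0509). With 1 or 2 animals per temperature on each slide, the called probe gave -0.77, -0.83, -1.58 and -0.99 within slides 2 to 5. Its call was lost in 9 of 31 alternatives, namely the authors' log2 table (-0.82, adjusted p 0.125), the F1 arrays alone (0.591), without slide 2, 3 or 4 (0.174, 0.167 and 1) and without TN replicate 1, 3 or 4 or HS replicate 5 (0.0544 to 0.084). It was smallest without slide 4, at -0.64. Of 16 measured mitochondrial translation factors, none had an unadjusted p under 0.05, against 9.76% of all genes, and the median was -0.04. Lists were read at each gene's brightest probe. For MTRF1 that was a probe outside the overlapping stretch (-0.05 ± 0.0821, limma unadjusted p 0.548), so its called probe did not enter this count.

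**Figure D2:**
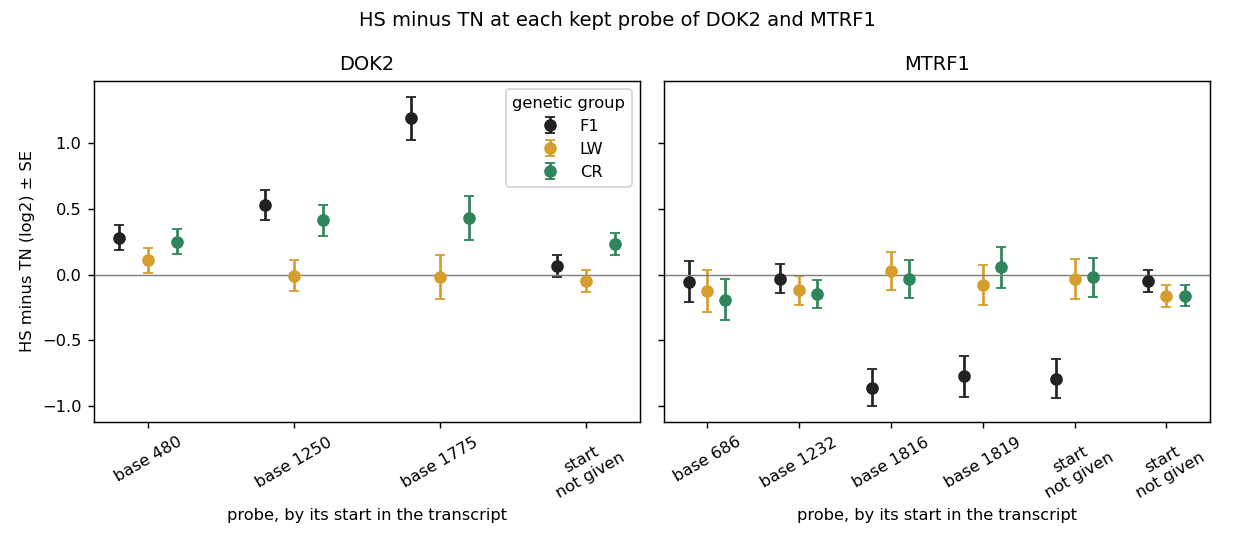
HS minus TN on the log2 scale (vertical axis, bars are the pooled SE of the fit, n = 6 per group) at each measured probe of DOK2 and MTRF1, ordered by the probe's start in the transcript, for F1, LW and CR. In F1 the DOK2 difference is 0.28, 0.53 and 1.19 at bases 480, 1250 and 1775, and the 3 overlapping probes of MTRF1 lie at -0.86, -0.77 and -0.79 in F1.

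The second lower probe, A_72_P181666, has no gene name in the tables and is shown by its first 30 bases.
A_72_P181666: tggatgagttcctttgtgtaggtgcttttg
TN animals lay at 9.81 to 10.79 (median 10.02) and HS animals at 8.41 to 9.80 (median 8.97). The groups did not overlap, although the highest HS and lowest TN animals were nearly level. This probe fell by 1.1 ± 0.181 (2.14-fold; limma adjusted p 0.0125). The difference was -0.13 in LW and -0.53 in CR. CR animals did not overlap either, at 9.5 to 9.82 in TN and 8.67 to 9.3 in HS. The call was lost in 11 of 31 alternatives, among them the F1 arrays alone (adjusted p 0.591), the fits without slide 1, 2, 3 or 4 (0.0557, 0.125, 0.0679 and 1) and those without TN replicate 1, 3 or 4 or HS replicate 2 or 5 (0.0505 to 0.084). Without HS replicates 1 and 2 and TN replicate 3 the difference was smallest, at -0.75 (adjusted p 0.412).

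Beyond these probes, the 10 largest positive and 10 largest negative differences were taken among genes with an unadjusted p under 0.001 at the representative probe, the brightest measured probe of a symbol. Of 11401 representative probes 50 met that p (0.439%), and with the exception of DOK2 none passed after adjustment. The adjusted p of the other 19 genes ran from 0.0669 to 0.272. The values below are therefore descriptions of the most separated genes and not calls.

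TRIP6, a LIM-domain adaptor of focal adhesions, was nearest to the threshold. It lay at 7.67 to 9.36 (median 8.23) in TN animals and 9.16 to 9.72 (median 9.46) in HS animals, so that the HS animals were tight and TN animals spread. The difference was 1.07 ± 0.205 (adjusted p 0.0669), against 0.08 in LW and -0.12 in CR. ANXA2, a membrane-binding annexin, ran from 11.89 to 12.57 in TN and 12.31 to 13.49 in HS (0.74 ± 0.154), and TMEM86B, a lysoplasmalogen hydrolase, from 10.2 to 11.49 and 11.03 to 11.95 (0.74 ± 0.153). PALMD (0.77), P311 (0.79) and the membrane protein STOM (0.59) overlapped between groups too, and all 7 probes of P311 were positive. C1orf116 separated fully, at 5.88 to 6.87 in TN and 6.95 to 7.49 in HS (0.62 ± 0.142).

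Secreted and endothelial genes completed the positive side. SERPINA7, also one of the study's own results, codes for thyroxine-binding globulin, a serpin that binds thyroxine in plasma. It lay at 12.85 to 13.71 (median 13.28) in TN and 13.49 to 14.17 (median 13.84) in HS, a difference of 0.53 ± 0.129, with 0.32 in LW and 0.29 in CR. CLEC4G, a lectin of liver sinusoidal endothelium, gave 0.50 ± 0.117 in F1, 0.28 in LW and -0.03 in CR. The median over 9 endothelial markers, CLEC4G included, was 0.002, and 5 of 9 were positive.

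The negative side was led by CPT1A, which carries long-chain fatty acids into mitochondria and limits their oxidation. CPT1A lay at 10.42 to 13.72 (median 12.5) in TN and 9.7 to 11.65 (median 11.22) in HS. Its lowest TN animal was replicate 5 and its highest replicate 3. The difference was -1.46 ± 0.384 (adjusted p 0.262), negative at all 6 of its probes, against 0.02 in LW and -0.58 in CR. With 1 or 2 animals per temperature on each slide, it was -1.71, -0.55, -3.24 and -0.05 within slides 2 to 5. CPT1A passed in 2 of 32 alternatives, with -1.84 without TN replicate 5 (adjusted p 0.0167) and -1.95 without slide 5 (0.0387), and was smallest without slide 4, at -0.85 (adjusted p 1). Both alternatives that passed leave out TN replicate 5, its lowest TN animal, which by itself widens the difference.

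USP2, a ubiquitin protease whose transcript cycles with the clock, and KLF9, a transcription factor induced by glucocorticoid and thyroid hormone, did not overlap between groups, as was the case for 43 representative probes (0.377%). USP2 lay at 9.43 to 11.13 in TN and 8.08 to 9.32 in HS (-1.32 ± 0.278, adjusted p 0.115). KLF9 lay at 12.44 to 13.2 and 11.49 to 12.29 (-0.82 ± 0.185, adjusted p 0.123), and all 11 of its probes were negative with an unadjusted p under 0.05. Both were negative in the breeds as well, USP2 with -0.53 in LW and -1.03 in CR and KLF9 with -0.31 and -0.75.

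PPA1, the cytosolic inorganic pyrophosphatase, gave -0.78 ± 0.176 with 9 of 9 probes negative, and its TN range of 13.06 to 14.3 met the HS range of 12.28 to 13.09 in a narrow band. In CR the PPA1 difference was 0.04 and in LW -0.36. LDHA, which interconverts pyruvate and lactate, gave -0.62 ± 0.17. The remaining genes were PLEK2, the vitamin transporter SLC5A6, the importin KPNA6, the tRNA synthetase cofactor EEF1E1 and the mitochondrial cyclophilin PPIF, with differences from -0.63 to -0.55.

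**Figure D3:**
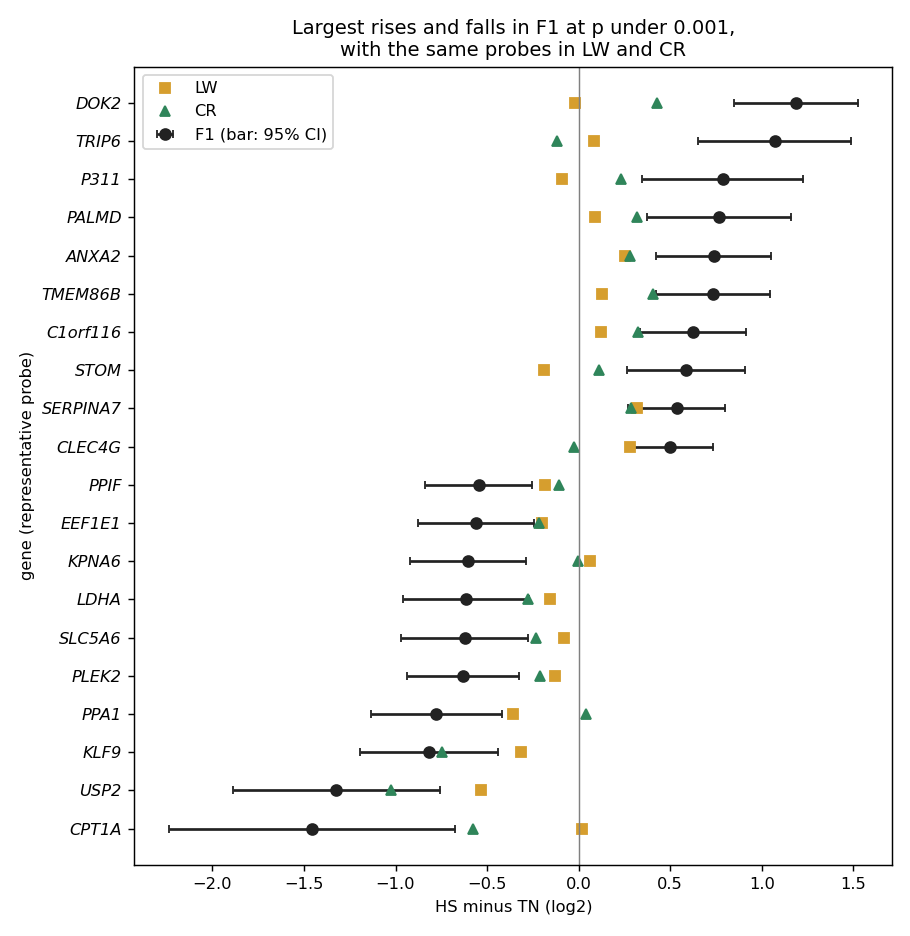
HS minus TN on the log2 scale (horizontal axis) for the 10 largest positive and 10 largest negative genes of F1 at an unadjusted p under 0.001, with the 95% confidence interval in F1 and the LW (squares) and CR (triangles) differences at the same probes, n = 6 per group. The interval rests on the spread pooled over all groups, not on that of F1 alone. USP2 and KLF9 are negative in all 3 groups, whereas TRIP6 and KPNA6 lie near 0 in LW and CR.

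Gene groups were described at representative probes. Over all 11401 genes the median difference was 0.002, and 1113 (9.76%) had an unadjusted p under 0.05, 537 (4.71%) higher and 576 (5.05%) lower. The counts below use that p and are to be read against those shares, since apart from DOK2 no member of any list passed after adjustment. HSPH1, FKBP4, ELOVL2, ELOVL6, FADS2, GPD1, PRC1 and SERPINA7 were among the study's own liver results. DOK2, HAMP, HSPA8, KLF9 and USP2 were also known from earlier results of these data, as all lists were chosen with such results known. The lists therefore carry no independent evidence of a direction. Lists share members, so their counts are not of separate genes. KLF9 and PER1 are members of both the glucocorticoid and the clock list, and KLF9 and ME1 of the thyroid list. ME1 is also in the fatty acid synthesis list and HMOX1 in the antioxidant and iron lists. The glucocorticoid list shares FKBP5 with the heat shock list, TDO2 with amino acid catabolism and IGFBP1 with the IGF axis.

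Of 42 measured heat shock proteins and co-chaperones, 6 were lower (14.3%) and 1 higher, with a median of -0.04. HSPA8, the constitutive cytosolic chaperone, lay at 12.73 to 13.83 (median 13.08) in TN and 11.75 to 12.73 (median 12.64) in HS, a difference of -0.65 ± 0.247. HSPH1, its nucleotide exchange factor, lay at 8.0 to 9.08 and 7.66 to 8.32 (-0.59 ± 0.183). BAG3, a co-chaperone of HSP70, separated fully, with 12.07 to 14.02 in TN and 11.24 to 11.94 in HS (-0.95 ± 0.275). The others were DNAJB1 (-0.50), AHSA1 (-0.26) and FKBP5 (-0.61), while the HSP90 co-chaperone FKBP4 was positive at 0.23. HSPA8 gave -0.62 in LW and -0.78 in CR, and HSPH1 -0.51 and -0.48. Among 28 genes of endoplasmic reticulum stress 22 were negative (median -0.18), with PDIA3, DNAJB11 and ERN1 lower and none higher.

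In the list of glucocorticoid action and targets, 7 of 21 measured genes were lower (33.3%) and 1 was higher, and the median was -0.22. Leaving out 1 array moved that median between -0.13 (without TN replicate 3) and -0.32 (without HS replicate 3), and it was -0.03 without HS replicates 1 and 2 and TN replicate 3. The 7 were FKBP5, PER1, DUSP1, KLF9, IGFBP1, GADD45A and ANGPTL4, with differences from -0.50 for GADD45A to -0.95 for ANGPTL4. TDO2, which degrades tryptophan and is itself a glucocorticoid target, was the positive one at 0.32. The list averaged 12.32 to 13.05 in TN animals and 11.89 to 12.37 in HS animals, with 6 of 6 HS animals below the TN mean. Its median was -0.21 in LW and -0.15 in CR. Of 19 clock genes, USP2, PER1 and KLF9 were lower and none was higher.

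Genes of fatty acid use showed 6 of 32 lower (18.8%) and none higher, with 25 negative and a median of -0.11, which was -0.05 without HS replicate 4. Among them, besides CPT1A, were HADHA of the mitochondrial trifunctional protein (11.14 ± 0.268 in TN and 10.67 ± 0.14 in HS, SD, n = 6), PPARA (-0.54), the carnitine carrier SLC25A20 (-0.33) and ETFDH (-0.21). The list averaged 12.4 to 12.78 in TN and 12.23 to 12.41 in HS. The list median was 0.004 in LW and -0.16 in CR. HADHA gave 0.15 in LW (limma unadjusted p 0.198) and -0.26 in CR (0.0282). Its F1 difference from the mean of LW and CR had a limma unadjusted p of 0.00594 and did not pass after adjustment.

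In fatty acid synthesis, elongation and desaturation 3 of 25 were lower, 1 was higher and the median was -0.04. ELOVL2, which elongates polyunsaturated fatty acids, lay at 7.57 to 11 (median 9.69) in TN and 6.17 to 8.96 (median 7.8) in HS, a difference of -1.73 ± 0.511 with all 8 probes negative. FADS2, the delta-6 desaturase, separated fully at 7.24 to 7.85 and 6.56 to 7.14 (-0.58 ± 0.169). ME1, which supplies NADPH, gave -0.70, and GPAM, which starts glycerolipid synthesis, was positive at 0.85. ELOVL6 gave -0.54 ± 0.356 and did not reach an unadjusted p of 0.05. MFSD2A, a transporter of lysophosphatidylcholine that carries polyunsaturated fatty acids, ran from 8.18 to 13.35 in TN and 6.27 to 9.84 in HS, a difference of -3.05 ± 0.904 (adjusted p 0.272).

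Cell cycle and DNA replication held 8 lower genes of 31 (25.8%) and none higher, with 24 negative and a median of -0.21. The members with the smallest p were PRC1 (-0.39), TPX2 (-0.65) and KIF23 (-0.34). Their TN means were 5.829, 8.404 and 6.172. The median of this list was -0.03 in LW and -0.31 in CR. Of 33 antioxidant enzymes 6 were lower (18.2%) and none higher, namely GPX4, PRDX1, PRDX3, TXNRD1, NQO1 and HMOX1, with differences from -0.24 to -0.63, while the list median was -0.02.

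Complement and coagulation was the list with most members on the positive side, 7 of 33 higher (21.2%), none lower and 27 positive, with a median of 0.11. C8B (0.43 ± 0.124), C5 (0.38 ± 0.113) and SERPIND1 (0.24 ± 0.0802) had the smallest p, followed by CFD, C1R, PROC and CFI. List means were 14.2 to 14.47 in TN and 14.34 to 14.49 in HS animals. Medians were 0.04 in LW and 0.09 in CR. Of 28 acute phase proteins and 33 interferon-stimulated genes, none had an unadjusted p under 0.05 in either direction, with medians of 0.01 and 0.02.

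HAMP encodes hepcidin, the hormone that blocks iron export. It lay at 7.31 to 12.24 (median 8.64) in TN and 8.3 to 15.83 (median 14.42) in HS. HS animals other than replicate 2 lay above every TN animal, at 13.79 or more. The difference was 4.47 ± 1.49 (adjusted p 0.325), with 3.46 in LW and 3.18 in CR. Of 20 iron genes, HAMP and FBXL5 (0.23) were higher and HMOX1 (-0.39) was lower.

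Mitochondrially encoded transcripts code for subunits of the respiratory chain. Of 13, 12 were negative with a median of -0.12, and none had an unadjusted p under 0.05. Their mean per animal was 17.24 to 17.37 in TN and 17.09 to 17.23 in HS, without overlap. The median was -0.13 in LW and in CR.

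In glucose, glycogen and glycerol metabolism LDHA, PCK2, G6PC and PC were lower (12.1%) and PFKFB1 was higher among 33, with G6PC, the last enzyme of glucose release, at 13.9 ± 0.898 in TN and 12.76 ± 0.848 in HS (SD, n = 6). In the urea cycle and amino acid catabolism list of 34, TDO2, PRODH and GLDC were higher and ARG1 was lower. DHCR7 and STARD4 were lower among 24 cholesterol genes, DHCR7 at a probe well above background on 5 of 6 TN and 1 of 6 HS arrays. For bile acids NR1H4, the bile acid receptor, was higher (0.25) and the phospholipid exporter ABCB4 lower (-0.76) among 20.

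Among 32 cytochrome P450 and conjugating genes CYP2C42, AHR and the nuclear receptors NR1I2 and NR1I3 were higher and EPHX1 was lower. CYP2C42 had a TN mean of 10.41 ± 1.85 and an HS mean of 12 ± 0.529 (SD, n = 6), a difference of 1.59. The lowest TN animal lay at 7.7, and the difference was 1.05 without TN replicate 3 and 0.4 without slide 4. Of 16 thyroid genes the receptor THRA and SERPINA7 were higher and ME1 and KLF9 lower. In the growth hormone and IGF axis IGFALS was higher and IGFBP1 and IGFBP2 were lower among 18.

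**Figure D4:**
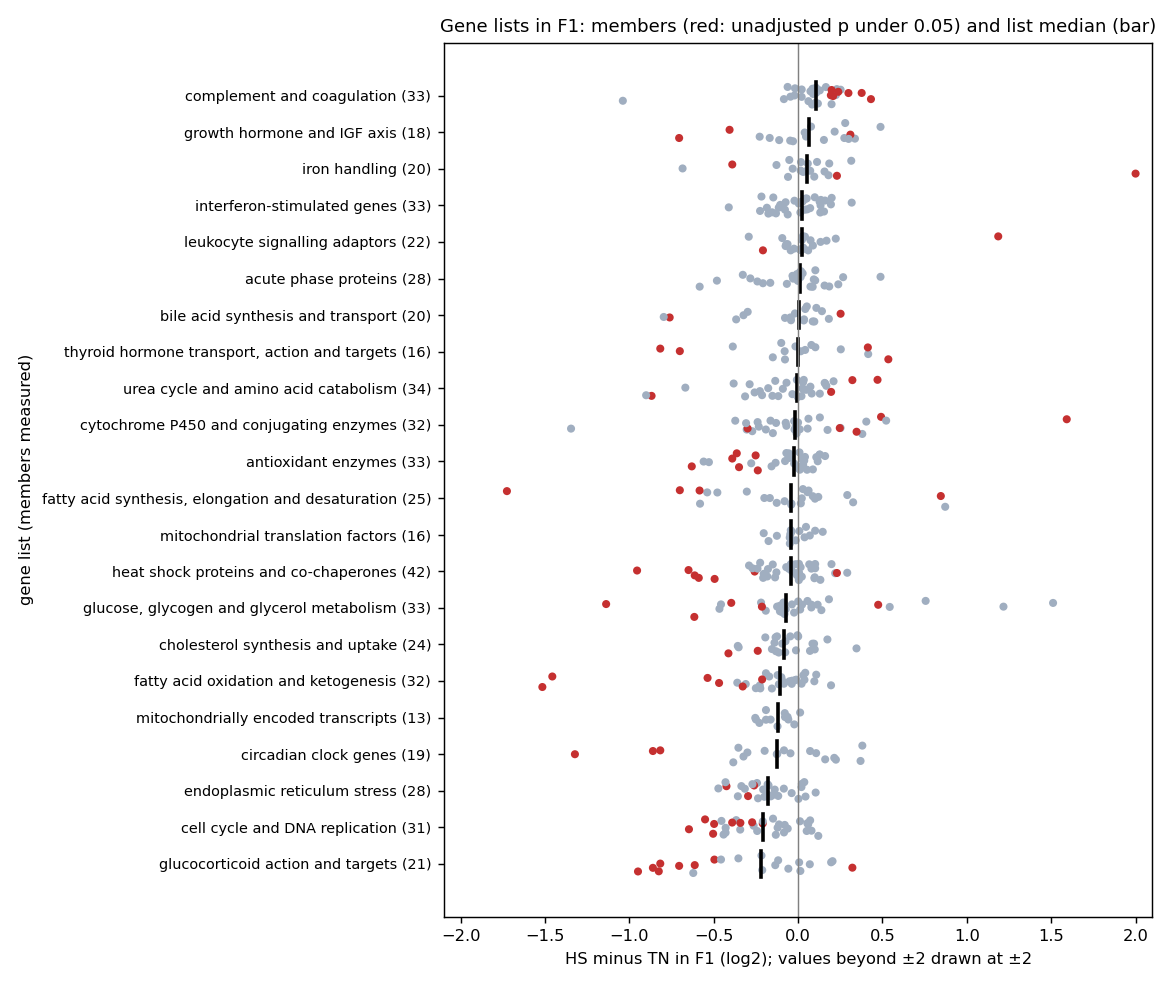
HS minus TN in F1 on the log2 scale (horizontal axis) for the measured members of 22 gene lists, each point a gene at its representative probe, red where the unadjusted p is under 0.05, with the list median as a black bar. HAMP, at 4.47, is drawn at the limit of 2. Medians run from -0.22 for glucocorticoid targets and -0.21 for cell cycle, whose order turned under some alternatives, to 0.11 for complement and coagulation.

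Markers of the other cell types, erythroid cells and platelets included, were compared in the same way. Stellate cell and fibroblast markers were positive in 10 of 11 with a median of 0.21, against 0.001 in LW and -0.06 in CR, and none had an unadjusted p under 0.05. Their mean was 10.12 to 10.55 in TN and 10.11 to 10.85 in HS. Bile duct markers had a median of 0.16, with KRT19 (0.35) and ANXA4 (0.27) higher and SPP1 (-0.83) lower. ANXA2 is known from such cells too, and the part of cell makeup in its difference was not tested. The median was 0.02 for hepatocytes, 0.09 for erythroid cells and platelets and -0.07 for pancreas, muscle and fat.

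The LW and CR animals gave a comparison that shares no animal with F1, although slides and normalization were common. Per the study's methods TN pigs of every breed were killed before the HS pigs. A shared sign therefore cannot tell temperature apart from slaughter day or age. Of 74 probes (0.165%) higher in F1 at an unadjusted p under 0.001, 64 (86.5%) had the same sign in the mean of LW and CR and 35 also an unadjusted p under 0.05. Of 86 lower probes (0.192%) 79 (91.9%) had the same sign and 27 such a p. In LW and CR 50.4% of all probes were positive, and 3594 (8.02%) had an unadjusted p under 0.05, 4.19% higher and 3.84% lower. The median difference of the 74 was 0.46 in F1 and 0.16 in LW and CR, and that of the 86 was -0.58 and -0.13. Since these probes were chosen for their size in F1, their larger F1 value is fixed by the choice. Across 11401 genes the Pearson correlation of the differences was 0.41 between F1 and the other animals, and genes are not independent replicates.

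No probe passed for a difference between the F1 response and that of LW and CR. The smallest adjusted p was 0.468, and 1661 probes (3.71%) had an unadjusted p under 0.05. Among representative probes the smallest p belonged to DOK2, IGFBP2, TRIP6, NOL11 and IP6K3. IGFBP2, a binding protein of insulin-like growth factors, went opposite ways, with -0.41 ± 0.164 in F1, 0.47 ± 0.164 in LW and 0.48 ± 0.164 in CR (unadjusted p 0.000104, adjusted p 1). In F1 it lay at 15.12 to 15.55 in TN and 14.49 to 15.57 in HS, with 3 HS animals below every TN animal. IP6K3 was well above background in only 1 of 6 TN and 4 of 6 HS arrays. ADPRH was among the 3 probes (0.0067%) called in the mean of LW and CR (adjusted p 0.0349). It gave 0.39 ± 0.105 in F1, 0.44 in LW and 0.42 in CR, and ZSCAN29 gave 0.42, 0.34 and 0.38.

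**Figure D5:**
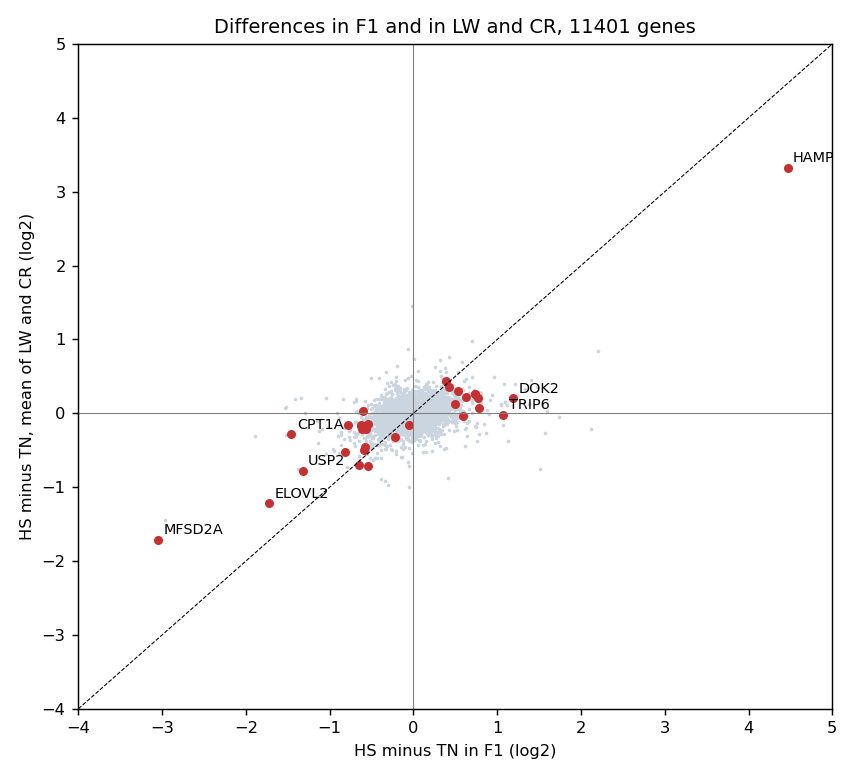
HS minus TN on the log2 scale in F1 (horizontal axis) against the mean of LW and CR (vertical axis) for 11401 genes at their representative probe, with named genes in red and the dashed line of equal differences. HAMP, MFSD2A, ELOVL2 and USP2 lie far from 0 on both axes, DOK2 and TRIP6 only on the F1 axis. The vertical axis averages LW and CR, which differed for DOK2, with -0.02 in LW and 0.43 in CR.

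Among the 12 F1 arrays, TN and HS animals differed in mean score on the second principal component (21.6% of the variance). There TN animals scored -61.9 to 20.6 and HS animals -1.86 to 38.5. The two-sided exact permutation test gave p = 0.0152, or 0.0456 adjusted over 3 components. It treats animals as exchangeable, although pens of 3 and slaughter days were nested in temperature. Temperature therefore cannot be told apart from pen or day here. The first component (25%) did not separate the temperatures (exact permutation p = 0.749). On the second component TN replicate 3 had the lowest score and TN replicate 5 lay within the HS range. Leaving out TN replicate 5 raised the number of called probes from 4 to 55, with 29 higher and 26 lower, among them the 4 above and probes of TRIP6, TMEM86B, PALMD, CPT1A, USP2, ELOVL2, KLF9 and ANXA2. On the second component TN replicate 5 was the TN animal nearest to the HS side. Its removal therefore favours a wider gap, and these calls add no support for the genes. Leaving out TN replicate 1, 3 or 4 or HS replicate 5 lowered it to 1, DOK2.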

How the data were processed

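Liver RNA of 36 pigs was labelled with Cy3 and hybridised to 1-colour Agilent arrays, 1 per animal. The authors deposited scanner tables made with Agilent Feature Extraction 10.10.1.1, which hold linear intensity values of each spot and its surroundings, not yet normalized between arrays, and 0 or 1 flags. They also deposited a log2 table of 42051 probes that was used only as an alternative. Its values follow the scanner tables in differences between arrays, whereas its centring is unknown. Symbols and coordinates came from the files and RefSeq (Sscrofa11.1), and 33075 probes had no name.

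Here log2 median signals were quantile normalized over non-control spots, 107 non-uniform spots were set missing, and a probe was kept if 6 or more of the 36 arrays had it well above background. The study's methods normalize before log2. Differences came from limma 3.58.1 in R 4.3.3 (means model of 6 groups, 30 residual degrees of freedom, two-sided moderated tests, Benjamini-Hochberg over 44796 probes). The study's random effects of pen, slaughter day and parents are not in the labels. Arrays lay on 5 slides, used as a block in an alternative. Replicate numbers follow accession order, and the spread between animals of a group includes shared litters and pens. In data simulated for F1 HS minus TN over 44723 probes, a log2 change of 0.5 was recovered for 64% of 100 changed probes and a change of 1 for 90%, beside 13 false calls. The simulated noise was independent between probes and between arrays, without slide, litter or pen effects. The recovered shares therefore need not hold for the measured animals. The number of arrays limits the precision. Named genes were all called probes with their symbol's other probes, the 10 largest differences each way at an unadjusted p under 0.001, the 3 members with the smallest p in each of 22 gene lists, 15 genes known from earlier results, and the 5 smallest p for F1 against LW and CR, while other list members were named after their values were seen. The members, lists and markers were chosen with earlier results of these data known. Alternatives covered the signal, normalization, filters, blocks, weights and left-out arrays and slides. 1 gene of a list is counted but not reported by name here.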

Additional observations from a re-analysis of the deposited data

Results flagged for a closer look

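In groups of 6, a lowest or highest animal was singled out when its gap to the nearest other animal exceeded the 95% critical value of Dixon's ratio. Of 100 groups examined 7 met this, and chance gives about 1 in 20. TN replicate 3 was the lowest for C1orf116 at 5.88 (others 6.56 to 6.87) and the highest for PPA1 at 14.3 (others 13.06 to 13.4). HS replicate 2 was the highest for LDHA at 12.34 (others 11.76 to 11.93) and the lowest for HAMP at 8.3 (others 13.79 to 15.83). HS replicate 4 was the lowest for HSPA8 at 11.75 (others 12.49 to 12.73), and TN replicate 5 the highest for IP6K3 at 5.63 (others 4.9 to 5.14). The median background of HS replicate 6 was 18.0 intensity units (others 22.5 to 25).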

How the results depend on the processing

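No paired analysis was possible because the replicate numbers follow accession order and the labels give no litter or pen. The number of probes called in F1, 4, became 7 with slide as a fixed block, 0 in the F1 arrays alone, 1 with one value per gene, and 0, 1, 0 and 61 without slides 2, 3, 4 and 5. Leaving out 1 F1 array gave 1 to 55 calls, 1 without TN replicate 1, 3 or 4 or HS replicate 5 and 55 without TN replicate 5. The 4167 probes at an unadjusted p under 0.05 became 1144 with one value per gene, which tests fewer features, 1630 without slide 4, and 2806 to 5245 without single arrays. Calls in LW and CR, 3, became 1 with normexp or with array row as a block, 13 in the authors' table, 6 with slide as a block, 21 with array weights, 12 with one value per gene, and 0 without slide 1, 2 or 5. The F1 difference against LW and CR, with no call, gave 1 without slide 5 and 0 to 3 without single arrays, 3 without TN replicate 5. The adjusted p of the second component was 0.0714 with the processed signal. The cell cycle median was -0.42 with the processed signal, and that of mitochondrially encoded transcripts -0.184 with one value per gene. The 3 other MTRF1 probes, near 0, turned positive in 11 cases: to 0.02611 with slide as a block, 0.06372 and 0.01908 without slide 2 and 0.01457 without slide 5, and without single arrays they ran from -0.1505 to 0.01717, -0.09375 to 0.007341 and -0.1029 to 0.03285. The cause was not tested where no construction is named. Medians of 10 of the 22 gene lists, none over 0.0737 in size, changed sign under some setting. Every other named probe kept its sign under the alternatives run, where, with one value per gene set aside, 35 calls of single probes were lost and 39 gained. Of 95 named probes 13 moved by over 1.5 times without 1 array and 41 without 1 slide, for MFSD2A to -1.91, ELOVL2 to -1.04, BAG3 to -0.53 and PALMD to 0.43 without slide 4.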
